A study of Rattus norvegicus with 12 samples.

Results

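The let-7 microRNAs and miR-98 are short regulatory RNAs that carry one common seed, the stretch near the 5′ end through which a microRNA (miRNA) recognises its target mRNAs. The assays examined here were those for let-7b, let-7c, let-7d, let-7e, let-7g, let-7i and miR-98, chosen by assay name on a TaqMan low density card for rodent miRNAs. They made up 7 of the 375 miRNA assays of the card, and all 7 were among the 222 assays that entered the tests. The card also held assays for let-7a and let-7f, which were not members of this selection and are given beside it.

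The material came from the medial entorhinal cortex (MEC) of Long Evans rats, the cortical area that sends its main output to the hippocampus. Stellate cells are principal neurons of layer II that project to the dentate gyrus, and they were labelled by injecting the lipophilic dye DiO into the dentate gyrus of pups on postnatal day 2, so that the dye travelled back along their axons. On day 4 or 5 the MEC of both hemispheres was dissociated and sorted, which gave 5 samples of DiO-labelled cells (stellate, n = 5) and 5 samples of unlabelled cells from the same cortex (non-stellate, n = 5). A further 2 samples were total RNA of MEC dissected on day 23 with no sorting (tissue, n = 2). The labels give no transgene or drug for any group, and all sorted cells had been through injection, dissociation and the exclusion of dead cells. For the injection the pups received isoflurane and the analgesic rimadyl, as the paper's methods state. The unlabelled fraction is defined by the absence of dye, so it can hold neurons of other layers, other cell types and stellate cells that took up no dye. Tissue and sorted cells differed in age, in the dye injection, in sorting and in the RNA extraction kit at once. These cannot be told apart in any comparison between tissue and sorted cells.

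The let-7 family was found through its role in developmental timing in the nematode. In mammals mature let-7 is kept low in stem cells and early progenitors, where the RNA-binding protein Lin28 blocks the processing of its precursors, and it rises as cells leave the cycle and differentiate. Its best known targets include Lin28 itself, Hmga2, Trim71 and the Ras genes, and in the brain let-7b acts on regulators of neural stem cell proliferation such as the nuclear receptor Tlx and cyclin D1.

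The mature sequences are shown because the assays have to tell apart RNAs that differ at only a few bases. They are the RefSeq sequences for rat (assembly GRCr8), 5′ to 3′, with the seed at bases 2 to 8 in capitals, and all 7 members matched an entry.
let-7b: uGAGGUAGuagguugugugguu
let-7c: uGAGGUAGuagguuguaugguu
let-7d: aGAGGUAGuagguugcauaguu
let-7e: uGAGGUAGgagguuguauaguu
let-7g: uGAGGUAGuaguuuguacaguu
let-7i: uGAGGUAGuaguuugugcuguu
miR-98: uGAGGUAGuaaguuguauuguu
let-7a: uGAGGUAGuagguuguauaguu
let-7f: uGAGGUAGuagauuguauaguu
All 9 were 22 bases long and held the same seed, and no other of the 693 mature entries of the table had it. Counted from the 5′ end and against let-7a, let-7c differed by A19G, let-7e by U9G and let-7f by G12A. The substitutions were A17G and A19G in let-7b, U1A and U16C in let-7d, G12U and U18C in let-7g, and G11A and A19U in miR-98. Let-7i differed most from let-7a, by G12U, A17G, U18C and A19U. Between members the number of differing bases ran from 1, for let-7b against let-7c, to 6, for let-7d against let-7i, and no difference lay in the seed. How far each assay also detects its neighbours was not measured here.

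The members come from 8 loci that are spread over the genome, most of them shared with other miRNAs. In GRCr8, let-7b (chr7:118684044-118684065) lies 327 bases from the second let-7c hairpin (mature let-7c at chr7:118683636-118683657). The first let-7c hairpin (chr11:29688127-29688148) is preceded by miR-99a at a gap of 640 bases. Let-7e (chr1:67350243-67350264) sits between miR-99b, at a gap of 96 bases, and miR-125a, at a gap of 354 bases. Let-7d (chr17:16322273-16322294) shares its region with copies of let-7a and let-7f, and miR-98 (chrX:24460663-24460684) lies 521 bases from a copy of let-7f. Let-7g (chr8:115701026-115701047) and let-7i (chr7:60527935-60527956, minus strand) had no annotated miRNA neighbour within 10000 bases.

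Each well gives a threshold cycle, Ct, the PCR cycle at which the signal crosses a set level. Ct is a log2 scale that falls as abundance rises, so that 1 cycle is nominally a factor of 2, and a well that never crossed is written as 40. None of the 84 member wells was undetermined, whereas the number of miRNA assays with a determined Ct on the card was 234 to 260 in stellate, 203 to 241 in non-stellate and 292 to 302 in tissue samples. The U6 small nuclear RNA, the reference used by the study, crossed at 16.5 to 19.0 in stellate, 17.7 to 20.2 in non-stellate and 15.6 to 16.0 in tissue samples. Over the 176 assays that gave a Ct in every sample, the median was 28.0 to 29.5 in stellate, 28.9 to 30.9 in non-stellate and 23.7 in both tissue samples, so that tissue moved much further on the card as a whole than on U6. All 5 miRNAs of a neuronal list (miR-124, miR-128a, miR-138, miR-129-3p and miR-9) were determined in all 12 samples, and so were miR-142-3p, miR-223 and miR-150 of a list for blood and microglia, whose miR-451 and miR-142-5p were undetermined in all 10 sorted samples. The oligodendrocyte miRNAs miR-219 and miR-338-3p were undetermined in 8 and 7 of the sorted samples. No list was made for stellate cells, so that label rests on the dye. The paper reports miR-150, and miR-143 of a vascular list used below, as up-regulated in the labelled cells. Levels are given below in U6-scaled Ct, that is, the Ct of a well after subtracting the mean Ct of its sample's 4 U6 wells, and a change of scale to the card median is given wherever it matters. Except in the summed levels of marker lists, Ct values of different assays are not compared as abundances, because the efficiency of each assay is unknown.

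The first comparison asked whether the let-7 family distinguishes stellate cells from the other cells of the MEC at this age. The 6 let-7 members stood at almost the same mean level in both sorted groups after U6 scaling, with log2 fold-changes (LFC, stellate over non-stellate) between -0.03 and 0.20. Only miR-98 had a larger mean difference, an LFC of -2.03, and its replicates spread over several cycles in both groups. In the limma fit over all 222 assays, 0 of 7 members passed a Benjamini-Hochberg (BH) adjusted p value of 0.05, against 0 of the 222 tested assays (0%), and at an unadjusted p under 0.05 the counts were 0 of 7 and 16 of 222.

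Let-7b, which is encoded with let-7c on chromosome 7, had U6-scaled Ct values of 5.35, 3.86, 4.18, 4.28 and 4.97 in stellate samples 1 to 5. In non-stellate samples 1 to 5 they were 4.52, 4.80, 5.58, 3.92 and 3.94, and in tissue 4.32 and 5.22. The 3 groups overlapped, and the LFC of stellate over non-stellate cells was 0.03 ± 0.52 (SE; 95% confidence interval -1.11 to 1.16; BH adjusted p = 0.996, limma).

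Let-7c, the member made from 2 hairpins, had U6-scaled Ct values of 4.40, 2.98, 3.43, 3.74 and 3.85 in stellate samples. In non-stellate samples the values were 3.31, 4.25, 4.79, 2.68 and 3.21, and in tissue 3.87 and 4.36. The sorted groups overlapped throughout, with an LFC of -0.03 ± 0.54 (SE; 95% interval -1.21 to 1.14).

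Let-7d is the only member with another first base. Its U6-scaled Ct was 7.92, 6.28, 6.47, 6.76 and 7.67 in stellate samples, 7.13, 7.66, 8.04, 6.06 and 6.33 in non-stellate samples, and 5.48 and 5.86 in tissue. Stellate and non-stellate samples overlapped (LFC 0.02 ± 0.57, SE), and both tissue samples crossed earlier than each sorted sample.

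Let-7e belongs to the miR-99b and miR-125a cluster. Its U6-scaled Ct was 4.55, 4.54, 4.87, 4.92 and 5.95 in stellate samples, 4.77, 5.59, 6.44, 3.75 and 4.31 in non-stellate samples, and 3.75 and 4.06 in tissue. The mean difference between the sorted groups was the smallest of the family (LFC 0.0045 ± 0.59, SE), and stellate sample 5 stood apart from the other 4.

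Let-7g and let-7i are the pair encoded outside miRNA clusters. Let-7g had U6-scaled Ct values of 8.32, 8.27, 8.41, 8.61 and 9.56 in stellate samples, 8.76, 9.64, 9.22, 7.91 and 8.65 in non-stellate samples, and 6.19 and 6.63 in tissue. Let-7i had 7.77, 6.52, 6.62, 6.30 and 7.55 in stellate samples, 6.89, 7.74, 8.01, 6.21 and 6.42 in non-stellate samples, and 4.67 and 5.18 in tissue. For both, the sorted groups overlapped and the tissue samples lay below all 10 sorted samples. The LFC of stellate over non-stellate cells was 0.20 ± 0.50 (SE) for let-7g and 0.10 ± 0.55 (SE) for let-7i.

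MiR-98, which carries the let-7 seed under another name, behaved unlike the rest in its spread. Its U6-scaled Ct was 11.4, 15.6, 16.0, 9.75 and 11.4 in stellate samples, 11.1, 9.67, 15.2, 7.84 and 10.2 in non-stellate samples, and 6.70 and 7.55 in tissue. Stellate samples 2 and 3 and non-stellate sample 3 were far later than the others, with raw Ct values of 33.8, 35.03 and 33.2 in wells of which 1 was run per sample. The LFC of -2.03 ± 1.502 (SE) had a 95% interval from -5.32 to 1.25 (BH adjusted p = 0.7105, limma; exact two-sided permutation p = 0.230). The labels give labelled and unlabelled cells of the same 5 biological replicates, and within these pairs miR-98 was lower in stellate cells in 5 of 5 on the U6 scale and in 4 of 5 on the scale of the card median, where pair 1 had an LFC of 0.25. With the replicate block on the U6 scale, the SE was 0.85 and the unadjusted p was 0.0380, while the BH adjusted p was 0.396.

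**Figure D1:**
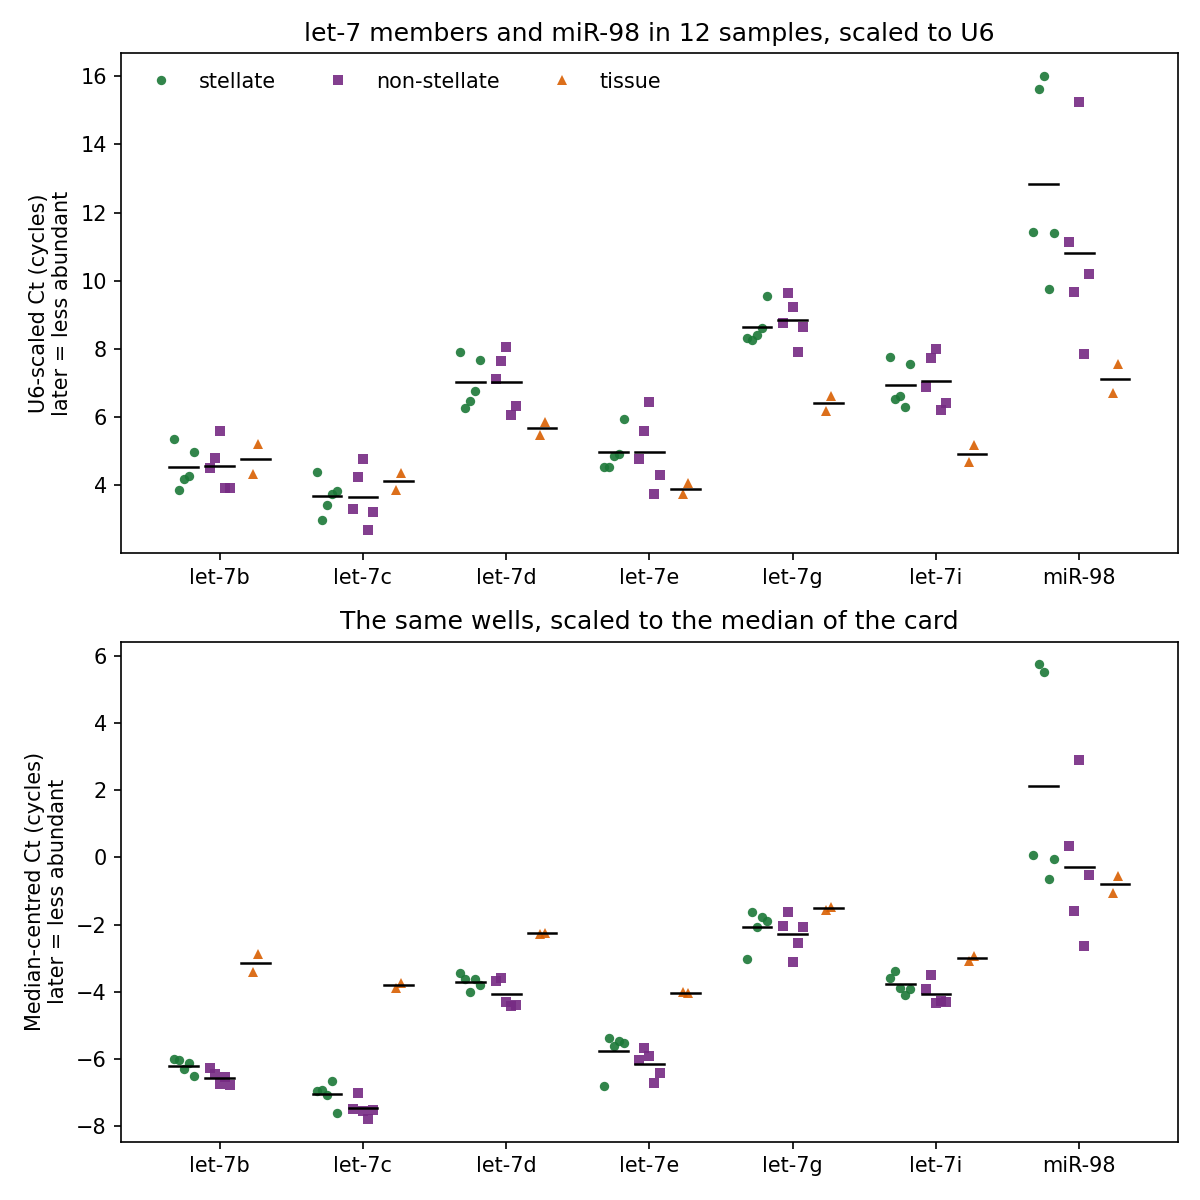
Ct of the 7 members in each of the 12 samples, in cycles, after subtraction of the U6 mean (top) or of the median Ct of 176 assays (bottom). Points are samples, coloured by group, and black bars are group means. Stellate and non-stellate samples overlap for each member on both scales. Tissue lies below all sorted samples for 4 of 7 members on the U6 scale, and above all sorted samples for 6 of 7 on the median scale. The shares over all assays are not given.

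Within 4 of the 5 pairs, the 6 let-7 members had the same sign on the U6 scale. In pairs 2 and 3 all 6 were higher in the stellate sample, by LFCs of 0.94 to 1.38 and 0.81 to 1.57, and in pairs 4 and 5 all 6 were lower, at -1.17 to -0.09 and -1.64 to -0.64. In pair 1, let-7e and let-7g were higher and the other 4 lower (-1.09 to 0.45). The median of all 222 assays was -0.45, 1.27, 1.77, 0.02 and -0.60 in pairs 1 to 5, and for the 6 let-7 members the range over pairs was narrower on the scale of the card median than on that of U6. On that scale let-7b was lower in stellate cells in 5 of 5 pairs, by -0.44 to -0.27, and let-7i in 5 of 5, by -0.45 to -0.13.

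On the median scale, the LFC of let-7b was -0.37 ± 0.21 (SE), with overlapping groups. Its exact two-sided permutation p was 0.0397 before adjustment, where the smallest p that 5 against 5 allows is 0.00794, and its BH adjusted p in limma was 0.420. With the replicate block on this scale the SE was 0.17, the unadjusted limma p was 0.0756 and the BH adjusted p was 0.262. The other let-7 members had median-scale LFCs of -0.43 (let-7c), -0.37 (let-7d), -0.39 (let-7e), -0.19 (let-7g) and -0.29 (let-7i), and miR-98 had -2.43 ± 1.56 (SE). The median over the 7 members was -0.37, against 0.07 over all 222 assays, and on the U6 scale it was 0.02 against 0.46, so that 7 of 7 members were below the median of the card, a position that the choice between these scales cannot change. With median scaling 0 of 7 members and 0 of 222 assays (0%) passed the BH threshold, and 0 of 7 and 28 of 222 had an unadjusted p under 0.05. These are relative amounts in bulk samples, in which fewer cells of a type and less RNA per cell cannot be told apart.

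**Figure D2:**
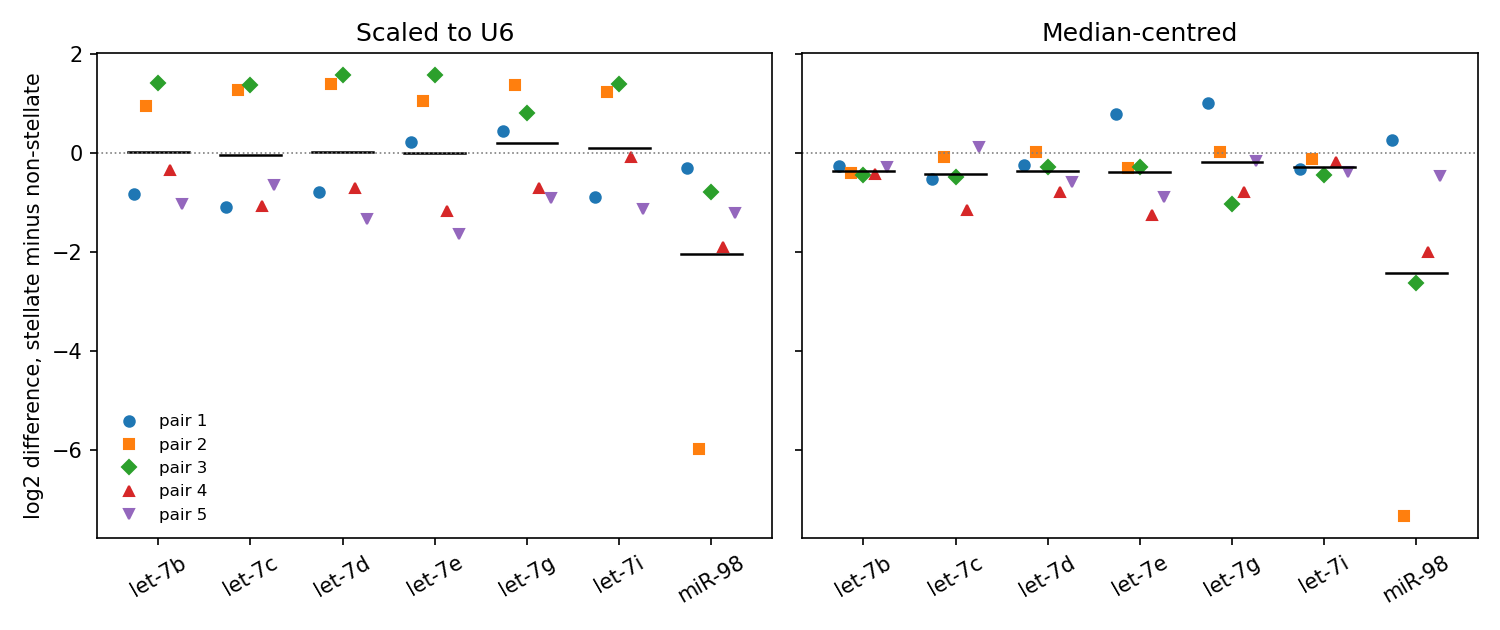
Log2 fold-change of stellate over non-stellate cells for each member in the 5 replicate pairs, scaled to U6 (left) or to the card median (right). Each symbol is 1 pair and black bars are means over pairs. On the U6 scale the let-7 members run from -1.64 to 1.57 and share their sign within pairs 2 to 5, while on the median scale let-7b runs only from -0.44 to -0.27 and miR-98 from -7.32 to 0.25.

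How steady the family was can be read from the spread of the median-scaled Ct over the 10 sorted samples. Let-7b had an SD of 0.276 cycles, the 7th lowest of 176 assays determined in all sorted samples, let-7i had 0.338 (14th), let-7d 0.365 (18th) and let-7c 0.380 (22nd). Let-7e and let-7g were less steady, at 0.526 and 0.542, but still below the median assay at 0.708. Of the other family assays on the card, let-7a had 0.478 (44th) and let-7f 0.917 (137th), the latter above the median assay. The relation of this spread to cycle position was not tested. MiR-98 had an SD of 2.86, rank 175 of 176. The correlation of median-scaled Ct over the 10 sorted samples ran from 0.185 to 0.828 (Pearson r, median 0.415) over the 15 pairs of let-7 members, and from 0.0566 to 0.494 between miR-98 and each of the 6. Within each sample all assays were scaled by the same median. These coefficients are descriptions over 10 samples and carry no test.

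The second comparison asked how the family stood in the MEC of day 23 against the sorted cells of day 4 or 5. In raw Ct, all 7 members crossed earlier in both tissue samples than in each of the 10 sorted samples. The card as a whole crossed earlier as well, with a median over 176 assays of 23.7 in both tissue samples. In sorted samples that median was 28.0 to 30.9. The share of all assays without overlap is not given here. After U6 scaling, let-7g, let-7i and miR-98 were higher in tissue and passed the test, let-7d and let-7e had positive LFCs that did not pass, and let-7b and let-7c had LFCs slightly below 0 that did not pass either. This made 3 of 7 members higher and 0 lower, while 62.2% of the 222 tested assays were higher and 1.35% lower. The median LFC of the members was 1.36, against 3.02 over all 222 assays, and 6 of 7 members lay below that median.

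The LFC of tissue over sorted cells was 2.32 ± 0.56 for let-7g (SE; BH adjusted p = 0.00314, limma), a factor of 5.00, and 2.08 ± 0.62 for let-7i (adjusted p = 0.0109), a factor of 4.21. For miR-98 it was 4.71 ± 1.77 (adjusted p = 0.0333), with a 95% interval from 0.86 to 8.55. Let-7d had 1.36 ± 0.65 (adjusted p = 0.0832) and let-7e 1.07 ± 0.68 (adjusted p = 0.188). The values for let-7b, at -0.23 ± 0.60 (adjusted p = 0.737), and let-7c, at -0.45 ± 0.61 (adjusted p = 0.543), had intervals of -1.54 to 1.07 and -1.78 to 0.88, neither of which reached the 3.02 of the median assay.

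The direction of most of these values turned on the scaling. Scaled to the card median, 5 of 7 members were lower in tissue (let-7b, let-7c, let-7d, let-7e and let-7i) and 0 higher, while 25.2% of the 222 assays were lower and 23.9% higher, with a median of 0.03. On that scale, let-7c fell by 3.44 ± 0.29 on the log2 scale (SE; BH adjusted p = 8.41e-06, limma), a factor of 10.9, and let-7b fell by 3.22 ± 0.25 (adjusted p = 5.60e-06), a factor of 9.34. Let-7e fell by 1.92 ± 0.39, let-7d by 1.62 ± 0.29 and let-7i by 0.91 ± 0.29 (adjusted p = 0.0220). Let-7g had an LFC of -0.67 ± 0.42 (adjusted p = 0.215) and miR-98 of 1.72 ± 1.82 (adjusted p = 0.451), neither past the threshold. The median-scaled Ct of let-7b was -6.77 to -6.00 in the 10 sorted samples and -3.42 and -2.88 in tissue, and that of let-7c was -7.78 to -6.64 and then -3.87 and -3.74. Both tissue samples lay above all sorted samples in this measure for 6 of 7 members, with miR-98 as the exception. The share of all assays that did so is not given here.

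The count of calls moved with the tissue samples that entered the fit. Without tissue sample 1, 0 of 7 members passed on the U6 scale, and without tissue sample 2, let-7g and let-7i passed. Over 230 assays with a Ct under 30 in both, the tissue samples differed with an SD of 0.389 cycles. The spread of U6 wells pooled over all 12 samples gives 0.518 for a difference between 2 wells. In tissue samples 1 and 2 themselves the U6 wells had SDs of 0.031 and 0.286, so the pooled 0.518 is no measure of their own wells. With 1 tissue sample left out, or with the pair counted as 1, the tissue arm was a single sample. The spread then came from the sorted groups alone, and the lone sample was assumed to vary like them. The share of all assays that passed in such fits is not given here. The labels call the 2 tissue samples biological replicates, and they were kept as 2.

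Most of the members' wells crossed early, and on the U6 scale early wells had smaller LFCs of tissue over sorted cells. Of the 176 assays determined in all 12 samples, let-7c, let-7b and let-7e ranked 2, 3 and 7 from the earliest by mean Ct in sorted cells, at 21.7, 22.6 and 23.1. The median LFC on the U6 scale was 2.32 over the 59 earliest assays, 2.79 over the next 58 and 3.61 over the 59 latest, and on the median scale it was -0.67, -0.20 and 0.62. Within the earliest 59, the LFC of let-7c ranked 6 from the lowest and that of let-7b 10, while let-7g stood at the middle with rank 30. The part of the cycle position in the result was not tested.

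Markers of other cells moved with the tissue comparison too. On the U6 scale, 4 of 4 tested vascular miRNAs, 3 of 3 of blood and microglia, 1 of 4 of choroid plexus and ependyma and 5 of 5 of the neuronal list were higher in tissue, against 62.2% of all 222 assays. On the median scale the counts were 2, 1, 1 and 2, against 23.9% of all assays. MiR-449a of the choroid plexus and ependyma list was lower in tissue on the U6 scale (LFC -4.43, BH adjusted p = 0.0136, limma), against 1.35% of all assays. On the median scale, miR-449a (-7.42) and miR-34b-3p (-2.09, adjusted p = 0.0476) of that list were lower, against 25.2% of all assays. The summed level of the vascular list (log2, relative to U6) was -10.2 to -5.96 in stellate, -11.0 to -8.05 in non-stellate and -3.52 to -2.99 in tissue samples, and that of the neuronal list was -3.06 to -1.84, -4.21 to -1.44 and 0.49 to 0.91. For blood and microglia it was -9.64 to -5.28, -11.4 to -8.60 and -4.60 to -4.32, and for choroid plexus and ependyma -9.30 to -6.45, -10.4 to -7.95 and -5.35 to -5.29. The oligodendrocyte list was undetermined altogether in 2 stellate and 3 non-stellate samples, and reached -9.90 to -9.03 in tissue. The vascular sum includes miR-143 and the blood and microglia sum miR-150, both reported by the paper as up-regulated in stellate cells. All these sums take the assays of a list as equally efficient, which is not known, and the earliest assay weighs most. In the neuronal list that was miR-9, with a U6-scaled LFC of stellate over non-stellate cells of -0.41. The other neuronal miRNAs had LFCs of 0.67 to 1.70, and none passed. In tissue the choroid plexus and ependyma sum came mostly from miR-204. The part of these cell types in the let-7 values was not tested.

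**Figure D3:**
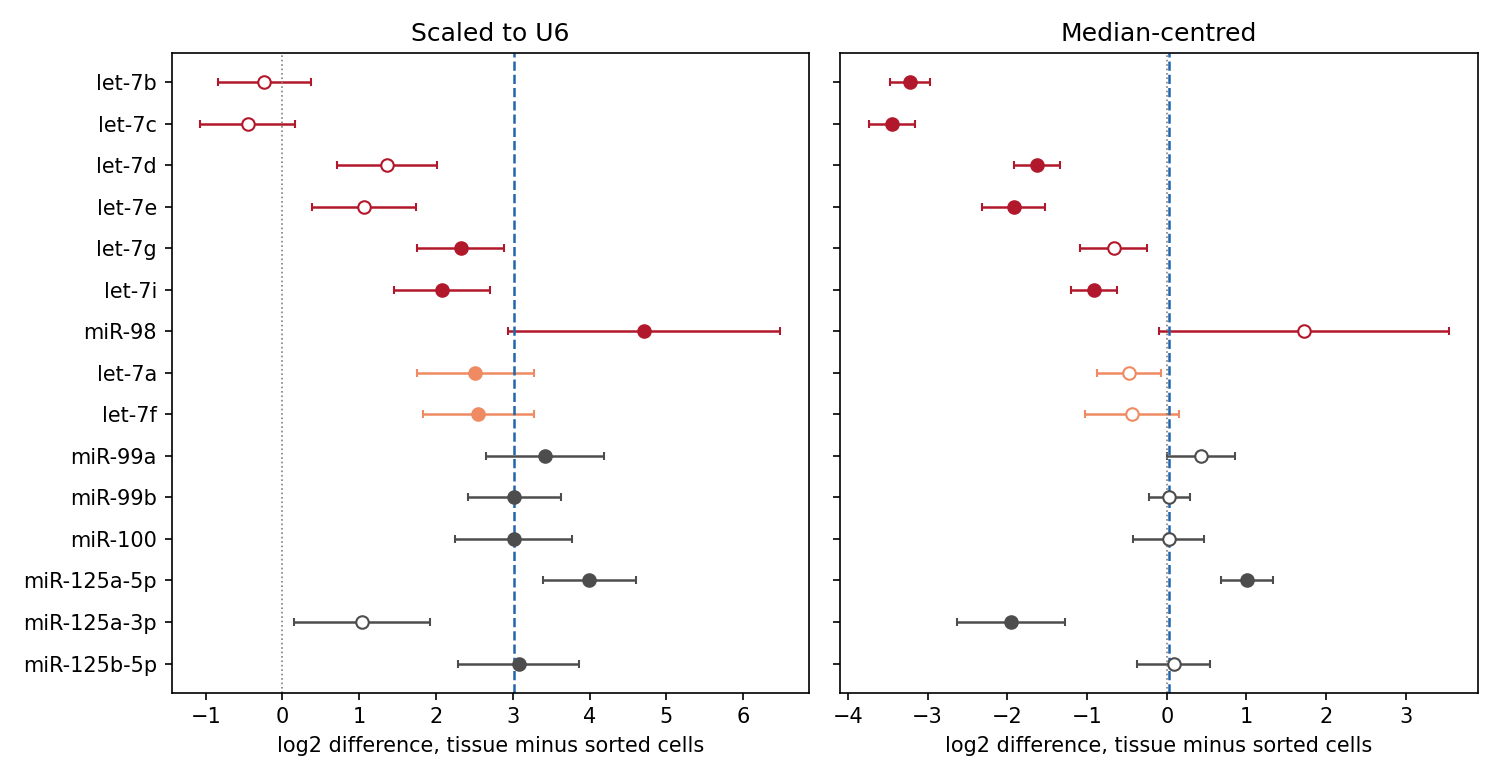
Log2 fold-change of tissue over sorted cells (mean ± SE, limma, 12 samples) for the 7 members (red), let-7a and let-7f (orange) and the partner miRNAs (grey), scaled to U6 (left) or to the card median (right). Filled points passed a BH adjusted p of 0.05, and the blue dashed line is the median of all 222 assays (3.02 and 0.03). Let-7b and let-7c stand farthest below that line on both panels.

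The same comparison was made for 6 partner miRNAs of the miR-99, miR-100 and miR-125 families. Of these, miR-99a, miR-99b and both arms of miR-125a lie beside members, miR-100 lies beside a copy of let-7a (gap 6829 bases), and miR-125b had no hairpin within 10000 bases of a member. On the U6 scale, 5 of 6 were higher in tissue (62.2% of all 222 assays), and their median LFC of 3.05 stood beside 3.02 over all assays. The LFCs of those that passed were 3.42 for miR-99a, 3.02 for miR-99b, 3.01 for miR-100, 4.00 for miR-125a-5p and 3.08 for miR-125b-5p. MiR-125a-3p, the other arm of the miR-125a hairpin, had 1.03 ± 0.88 (adjusted p = 0.332). Let-7e had an LFC of 1.07, beside 3.02 and 4.00 for miR-99b and miR-125a-5p from the same cluster, and let-7c had -0.45 beside 3.42 for miR-99a. The difference between partners and members was not tested. Scaled to the median, 1 of the partners was higher (miR-125a-5p, 1.01) and 1 lower (miR-125a-3p, -1.96). Between stellate and non-stellate cells 0 of 6 partners passed on either scale, and their U6-scaled LFCs ran from -0.57 for miR-99a to 0.85 for miR-125a-5p.

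Let-7a and let-7f, the remaining family assays on the card, were determined in all 12 samples. On the U6 scale they were higher in tissue by LFCs of 2.51 ± 0.76 (BH adjusted p = 0.0112, limma) and 2.55 ± 0.72 (adjusted p = 0.00729), and on the median scale they had -0.48 and -0.44, neither past the threshold. Between the sorted groups let-7a had an LFC of 0.44 ± 0.66 (SE) and let-7f of -0.52 ± 0.63 (SE).

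A difference between wells of the same sample needs no reference RNA, and such differences were used to describe how the members stood against each other. Each member was set against the mean Ct of the 6 let-7 members in its sample, with miR-98 left out of the mean, a centre chosen after the data had been seen because miR-98 moved the mean of all 7. Relative to this mean, let-7b ran from -1.81 to -1.04 cycles over the 10 sorted samples and stood at -0.39 and 0.00 in tissue. Let-7c ran from -2.74 to -1.99 and stood at -0.84 and -0.86. Both were thus later, relative to the rest of the family, in tissue than in each sorted sample.

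Let-7g and let-7i shifted the other way. Let-7g stood 1.93 to 3.17 cycles after the mean in sorted samples and 1.48 and 1.41 in tissue, and let-7i stood at 0.53 to 1.39 and then -0.04 in both tissue samples. Let-7d was at 0.81 to 1.54 in sorted samples and at 0.76 and 0.64 in tissue, just outside the range, while let-7e (-1.83 to -0.58, then -0.97 and -1.16) stayed within it. MiR-98 was 2.75 to 10.3 cycles after the mean in sorted samples and 1.98 and 2.33 in tissue. The stellate and non-stellate ranges overlapped for all 7. With this centre the tissue samples were outside the sorted range for 6 of 7. For this and the following centres, the share of all assays outside that range is not given here. Set against the mean of all 7 members instead, 3 of 7 were outside it, namely let-7b (-3.01 to -1.56 in sorted samples, -0.67 and -0.33 in tissue), let-7c (-3.89 to -2.59, then -1.12 and -1.19) and miR-98 (2.36 to 8.87, then 1.70 and 2.00). Against the median of the 7 members, 4 of 7 were outside it (let-7b, let-7c, let-7d and let-7e), and let-7d then stood later in tissue (0.80 and 0.64) than in sorted samples (0.00 to 0.47), the opposite of its shift against the mean of 6.

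The same holds for single pairs of assays, which need no centre. Let-7i crossed 2.02 to 2.94 cycles after let-7b in sorted samples and 0.35 cycles after and 0.04 cycles before it (0.349 and -0.043) in tissue. Let-7g crossed 3.92 to 5.71 cycles after let-7c in sorted samples and 2.32 and 2.27 in tissue. By contrast, let-7b and let-7c, which differ by 1 base, had gaps of -1.25 to -0.53 cycles in sorted samples and of -0.45 and -0.86 in tissue, the second within the sorted range. Both tissue samples lay outside the sorted range in 10 of the 15 pairs among the let-7 members, whose gaps had SDs of 0.206 to 0.554 cycles over sorted samples, and in 4 of the 6 pairs with miR-98, with SDs of 2.64 to 2.88. These spacings describe the samples and were not tested. How many pairs over the whole card had both tissue samples outside the sorted range is not given here. The shifts against the mean of 6 fell as mean Ct in sorted cells rose, except between let-7d and let-7i (both 25.1). They ran from 1.48 cycles for let-7c (Ct 21.7) to -1.30 for let-7g (26.8) and -3.68 for miR-98 (29.9). Over the card, too, the median LFC of tissue over sorted cells was larger for later wells. Mean Ct in sorted cells also enters each shift, so ordering and shift are not independent. The part of the cycle position in these spacings was not tested.

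**Figure D4:**
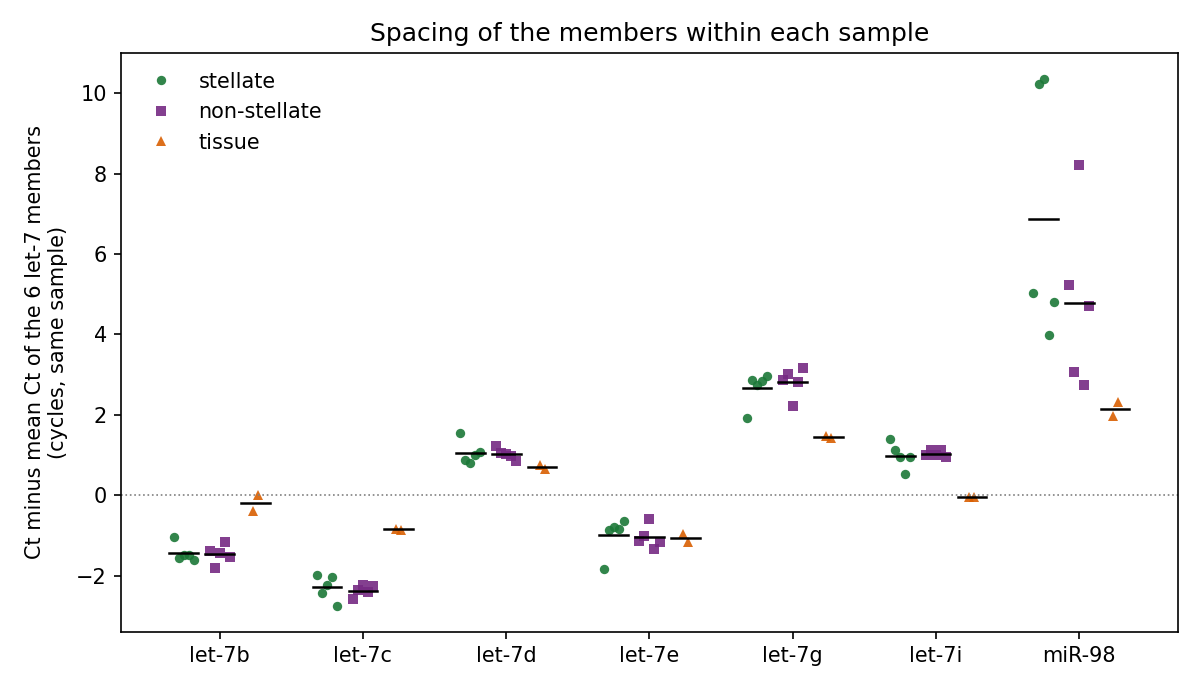
Ct of each member minus the mean Ct of the 6 let-7 members in the same sample, in cycles, by group (points are samples, bars are group means). Let-7b and let-7c lie closer to the mean in tissue than in each sorted sample, let-7g and let-7i shift down, and miR-98 runs from 2.75 to 10.3 in sorted samples against 1.98 and 2.33 in tissue.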

How the data were processed

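Total RNA was reverse transcribed with Megaplex primers, pre-amplified and run on a TaqMan card, with 1 well per miRNA assay and 4 U6 wells. The authors called Ct with ViiA7 Software 1.2 and deposited a raw table on the log2 scale (40 for undetermined wells) and a normalized log2 table from HTqPCR, which equals Ct minus the mean of the U6 wells (largest difference 5.3e-15). Tables of the authors' own comparison (fold-changes, p-values) were not used. No molecule count exists for such cards, and the number of samples limits the precision.

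Of the 375 assays, the 222 with no more than 3 undetermined wells among the 10 sorted samples were tested. LFC is minus the difference in scaled Ct. Groups were compared with limma (version 3.58.1; R version 4.3.3) by lmFit with eBayes moderation, two-sided, with BH adjustment over 222 assays and a threshold of 0.05, stellate against non-stellate over 10 samples and tissue against the mean of both sorted groups over 12, without a block. Single members were also compared by exact permutation. The procedure was tested on simulated data. Median scaling used the 176 assays determined in all samples. Alternatives changed the scaling, undetermined wells, assay filter, moderation, block and samples.

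The labels describe 5 biological replicates from which labelled and unlabelled cells were sorted, so numbers were read as pairs. Deviations from group means correlated within pairs 1 to 5 at 0.331, 0.119, 0.256, 0.155 and 0.0743. For non-stellate samples 3 and 5 the description disagrees with the title, source and fluorescence, which were followed. Named miRNAs were the members, the other let-7 assays, the partner miRNAs, miR-202-3p, the marker lists and the assays most like the family mean. The members and lists were chosen with earlier results of these data known. Sequences and positions came from RefSeq tables (GRCr8). The labels and methods used here do not give the sex of the animals or how many were pooled.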

Additional observations from a re-analysis of the deposited data

Results flagged for a closer look

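In stellate cells, 1 sample lay far from the other 4 for a pair of members. The U6-scaled Ct of let-7e was 5.95 (5.954) in stellate sample 5 and 4.54 to 4.92 in the other 4, and that of let-7g was 9.56 (9.561) in stellate sample 5 and 8.27 to 8.61 in the other 4. U6 crossed earliest among the sorted samples in this sample, at 16.5, and on the median scale let-7e and let-7g were at -5.51 and -1.90 there, inside the range of the other stellate samples. On that scale stellate sample 1 stood apart instead. Its let-7e was at -6.80, against -5.61 to -5.36 in the other 4, and its let-7g at -3.03, against -2.07 to -1.63. Over the 14 groups examined, chance flags about 1 in 20, or 0.7 groups.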

How the results depend on the processing

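No member passed between stellate and non-stellate cells under any of 34 alternatives (0 in each), the replicate block included. Without the block, 0 of all 222 assays passed on the U6 and median scales. For the other alternatives that share is not given here. The median LFC of the members was -0.37 to 0.81, the highest with snoRNA202 scaling (0.81). The replicate block moved no count of members (0 in sorted cells, 3 in tissue). MiR-98 kept a negative LFC under all 34 (-3.30 to -1.05; adjusted p 0.268 to 0.991). The let-7 members, near 0, changed sign under several. With median centring, with or without the replicate block, let-7b had -0.37, let-7d -0.37, let-7e -0.39, let-7g -0.19 and let-7i -0.29, and with global mean scaling, likewise, -0.31, -0.31, -0.33, -0.13 and -0.23. Let-7c became positive with snoRNA135 (0.068), snoRNA202 (0.75), Y1 (0.28), the mean of 5 reference RNAs (0.20) and quantile normalization (0.34). Quantile normalization turned let-7d (-0.47), let-7e (-0.066), let-7g (-0.45) and let-7i (-0.34), U87 turned let-7e (-0.01), and without non-stellate samples 3 and 5 let-7b, let-7d, let-7e and let-7i had -0.11, -0.073, -0.26 and -0.0059. Leaving out 1 sample gave -0.32 to 0.29 for let-7b, -0.38 to 0.23 for let-7c, -0.37 to 0.36 for let-7d, -0.38 to 0.42 for let-7e, -0.089 to 0.48 for let-7g and -0.22 to 0.41 for let-7i.

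In tissue against sorted cells, 5 members passed with median centring and quantile normalization (all lower) and with snoRNA135 and U87 (all higher), 4 with global mean scaling and Y1 (all lower), 0 with snoRNA202 and 1 with the tissue samples averaged. Leaving out 1 sample gave 0 to 3, the 0 being without tissue sample 1. The median LFC of the members was -1.62 with median centring, -1.31 with global mean scaling, -2.14 with Y1 and -1.42 with quantile normalization. Under these 4, let-7d had -1.62, -1.31, -2.14 and -1.42, let-7e -1.92, -1.61, -2.44 and -1.93, let-7g -0.67, -0.35, -1.18 and -0.41, and let-7i -0.91, -0.60, -1.43 and -0.94. Let-7b was positive with snoRNA135 (0.16) and U87 (0.52), ran from -0.68 to 0.22 with 1 sample left out, and let-7c was positive with U87 (0.30). MiR-98 stayed positive under all 30 alternatives (1.201 to 5.72) and passed in 20 of them. The cause of these differences was not tested. Apart from median centring, the share of all tested assays that passed under each alternative is not given here. The counts of members that passed therefore cannot be set against the whole card. Wells were single and no count of molecules is known, so late wells such as those of miR-98 have the least certain values.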

Other observations

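MiR-202-3p, whose seed is close to that of let-7, was undetermined in 6 of the 10 sorted samples, had a raw Ct of 30.9 to 34.6 in the other 4 and 30.8 and 31.9 in tissue, and was too sparse to enter the tests.

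Among the 169 other assays determined in all 12 samples, those most like the mean of the 7 members in median-scaled Ct over the 10 sorted samples were miR-30b (Pearson r = 0.779), miR-16 (0.746) and miR-28 (0.744). Over all 12 samples they were rno-miR-351 (0.847), miR-15b (0.832) and miR-93 (0.815), where the 2 tissue samples stand apart from the rest and weigh on each coefficient. With miR-98 left out of the mean, a choice made after the data had been seen, let-7f (0.702), miR-199a-3p (0.663) and miR-872 (0.628) came first over the sorted samples, and miR-193b (0.958), miR-532-3p (0.951) and miR-484 (0.939) over all 12. None of the 3 leading assays with miR-98 was among the 3 without it on either set of samples. Within each sample all assays were scaled by the same median, and these coefficients are descriptions.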
